A study of Mus musculus with 8 samples.

Results

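The genes described here encode the enzymes that write and remove methyl marks on DNA: the methyltransferases Dnmt1, Dnmt3a and Dnmt3b, their cofactors Uhrf1 and Dnmt3l, and the dioxygenases Tet1, Tet2 and Tet3. They were taken by gene symbol from a table of 28460 genes, in which all 8 were found, and all 8 were among the 16059 genes tested. RNA-seq had been carried out on spermatogenic cells of mouse testes at postnatal day 12, an age when the leading germ cells are in early meiotic prophase. There were 4 libraries from Brg1 conditional knockouts (Brg1 cKO) and 4 with the wild-type gene (Brg1 WT), all of a mixed strain background, and the series' design text calls them biological replicates. Brg1 is the product of Smarca4, the motor subunit of SWI/SNF, a complex that moves nucleosomes, and the comparison asked which transcripts differ when it is lost. Neither the Cre driver nor the deleted exons are named in the labels. The cells were freed with collagenase and trypsin and passed through a sieve, and the labels name no sort, so somatic cells of the testis could be carried along.

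DNA methylation in mammals sits mainly on the cytosine of CG dinucleotides (CpG). Dnmt1, guided by Uhrf1 to hemimethylated sites behind the replication fork, copies the mark to the new strand. Dnmt3a and Dnmt3b set new marks, and Dnmt3l, which has no catalytic activity of its own, stimulates them and is needed in mouse prospermatogonia for the methylation of transposons and of paternally imprinted regions. The Tet proteins oxidise 5-methylcytosine and so open a path to its removal. No methylation was measured here: the values below are transcript levels only.

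To show the substrate of these enzymes in the genes themselves, promoter sequence is printed for 4 of the 5 genes that differed between the genotypes, with every CpG in capitals. Each is the 250 bases upstream of a transcription start in RefSeq's GRCm38.p6, 5′ to 3′ on the gene's strand, and for a gene with several starts the window with the most CpGs among those free of annotated exons was taken. Tet2 (chr3:133544391-133544640, minus strand) had 51 CpGs, a count reached by 0.067% of 32851 promoter windows, its own included. Dnmt3a (chr12:3806730-3806979, plus strand) had 38, a count reached by 1.88% of windows. Dnmt1 (chr9:20952980-20953229, minus strand) had 7, reached by 46.3% of windows, and Dnmt3l (chr10:78049592-78049841, plus strand) had 4, reached by 62.2%.
Tet2: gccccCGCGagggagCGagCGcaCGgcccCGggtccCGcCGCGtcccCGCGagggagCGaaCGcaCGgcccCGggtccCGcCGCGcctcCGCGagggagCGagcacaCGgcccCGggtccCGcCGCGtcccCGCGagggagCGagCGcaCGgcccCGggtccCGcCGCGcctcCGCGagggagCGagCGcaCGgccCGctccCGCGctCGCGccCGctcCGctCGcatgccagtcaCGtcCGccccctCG
Dnmt3a: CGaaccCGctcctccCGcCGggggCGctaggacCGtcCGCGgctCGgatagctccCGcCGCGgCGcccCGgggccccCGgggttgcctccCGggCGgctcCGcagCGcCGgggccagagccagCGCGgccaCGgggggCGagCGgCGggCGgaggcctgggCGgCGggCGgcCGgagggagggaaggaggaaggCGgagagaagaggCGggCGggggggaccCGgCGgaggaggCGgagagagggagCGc
Dnmt1: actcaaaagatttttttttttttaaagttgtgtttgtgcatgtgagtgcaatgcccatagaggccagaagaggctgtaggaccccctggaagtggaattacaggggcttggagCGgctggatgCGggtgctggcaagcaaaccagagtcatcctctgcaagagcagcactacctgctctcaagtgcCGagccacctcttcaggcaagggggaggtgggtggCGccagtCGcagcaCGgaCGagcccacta
Dnmt3l: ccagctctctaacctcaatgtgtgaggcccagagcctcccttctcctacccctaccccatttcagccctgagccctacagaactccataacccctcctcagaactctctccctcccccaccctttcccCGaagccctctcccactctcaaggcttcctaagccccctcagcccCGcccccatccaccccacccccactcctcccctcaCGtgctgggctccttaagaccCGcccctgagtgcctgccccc
For Dnmt1, Dnmt3a and Dnmt3l other windows held more CpGs, 26, 40 and 5, but overlapped annotated exons and are not printed, like the only window of Tet1. Over all 15 windows of the 8 genes the count ran from 2 to 51 CpGs, and 11 windows held more than the median of 6, as did 46.3% of all windows. A CpG count describes the sequence and says nothing about whether these promoters were methylated in these cells. The submitters' processing notes name mm9, so these coordinates belong to another build than theirs.

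Smarca4 was lower in every Brg1 cKO library, with 129, 122, 111 and 122 CPM in Brg1 cKO replicates 1 to 4, against 347, 357, 347 and 338 CPM in Brg1 WT replicates 1 to 4 (log2 fold change -1.52 ± 0.061, SE, edgeR quasi-likelihood test, adjusted p = 6.8e-06). CPM are counts scaled to a common library total. Totals before this scaling ran from 20456743 to 32596038 estimated counts, which limits the precision of low genes such as Dnmt3l. The markers of some cell types moved with the genotype, in an edgeR fit that called 20.6% of all tested genes at adjusted p under 0.05. None of 6 endothelial and 8 macrophage markers was called, with median log2 fold changes of 0.37 and 0.51. Of 7 Leydig cell and 7 stromal markers 1 each was higher (medians 0.69 and 0.68). Of 6 peritubular myoid markers 1 was lower (median 0.25). The median was 0.46 for the Sertoli cell markers and 0.01 for all genes, so few calls do not mean small shifts. Of 8 markers of differentiating spermatogonia 4 were lower and 1 higher (median -0.56). Of 11 markers of germ cells of all stages 4 were lower and none higher in Brg1 cKO, and their summed level was 1130 to 1490 CPM in Brg1 cKO and 1490 to 1930 CPM in Brg1 WT. Dazl, an RNA-binding protein of germ cells, averaged 531 CPM in Brg1 cKO and 645 CPM in Brg1 WT (adjusted p = 0.12). Of 13 Sertoli cell markers 7 were higher and none lower, with summed levels of 5550 to 7610 CPM in Brg1 cKO and 4430 to 5610 CPM in Brg1 WT. Clu, which encodes the secreted protein clusterin, averaged 4120 CPM in Brg1 cKO and 2810 CPM in Brg1 WT (adjusted p = 0.022). On average most of the Sertoli cell sum came from this 1 gene. Of 14 markers of meiotic prophase 9 were lower and none higher, summing to 1090 to 1340 CPM in Brg1 cKO and 1500 to 2140 CPM in Brg1 WT. No marker of any cell type was at 0 in all libraries. Transcripts of pachytene spermatocytes and spermatids summed to 89.7 to 106 CPM in Brg1 cKO libraries, against 237, 208, 152 and 133 CPM in Brg1 WT replicates 1 to 4, so that Brg1 WT replicates 1 and 2 stood apart from their group. The calls of the enzyme genes are therefore also given without these 2 libraries. The fit without them called 2.66% of all genes. In that fit 2 of the 11 germ cell markers and 2 of the 14 meiotic markers were called lower, and 2 of the 13 Sertoli cell markers higher. In bulk samples fewer cells of a type and less RNA per cell cannot be told apart.

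Of the 8 enzyme genes, Tet1, Tet2 and Dnmt3a were higher and Dnmt1 and Dnmt3l lower in Brg1 cKO, while Uhrf1, Dnmt3b and Tet3 did not pass the test. The test was edgeR's quasi-likelihood test across all genes, and a gene was called when its Benjamini-Hochberg adjusted p was under 0.05. In that fit 20.6% of all tested genes were called, 8.79% as higher and 11.8% as lower. The same 5 genes were those whose libraries did not overlap between the genotypes, a pattern that 26.0% of all tested genes showed. Dnmt3l passed the filter on low counts through the Brg1 WT libraries, the group where it was high: 1 of 4 Brg1 cKO libraries and 4 of 4 Brg1 WT libraries were over the limit of 0.392 CPM. It is therefore not counted as support for a change of the group. Without Brg1 WT replicates 1 and 2, Tet1 alone of the 8 was called, in a fit that called 2.66% of genes. The changes of the other 4 called genes kept their direction there.

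**Figure D1:**
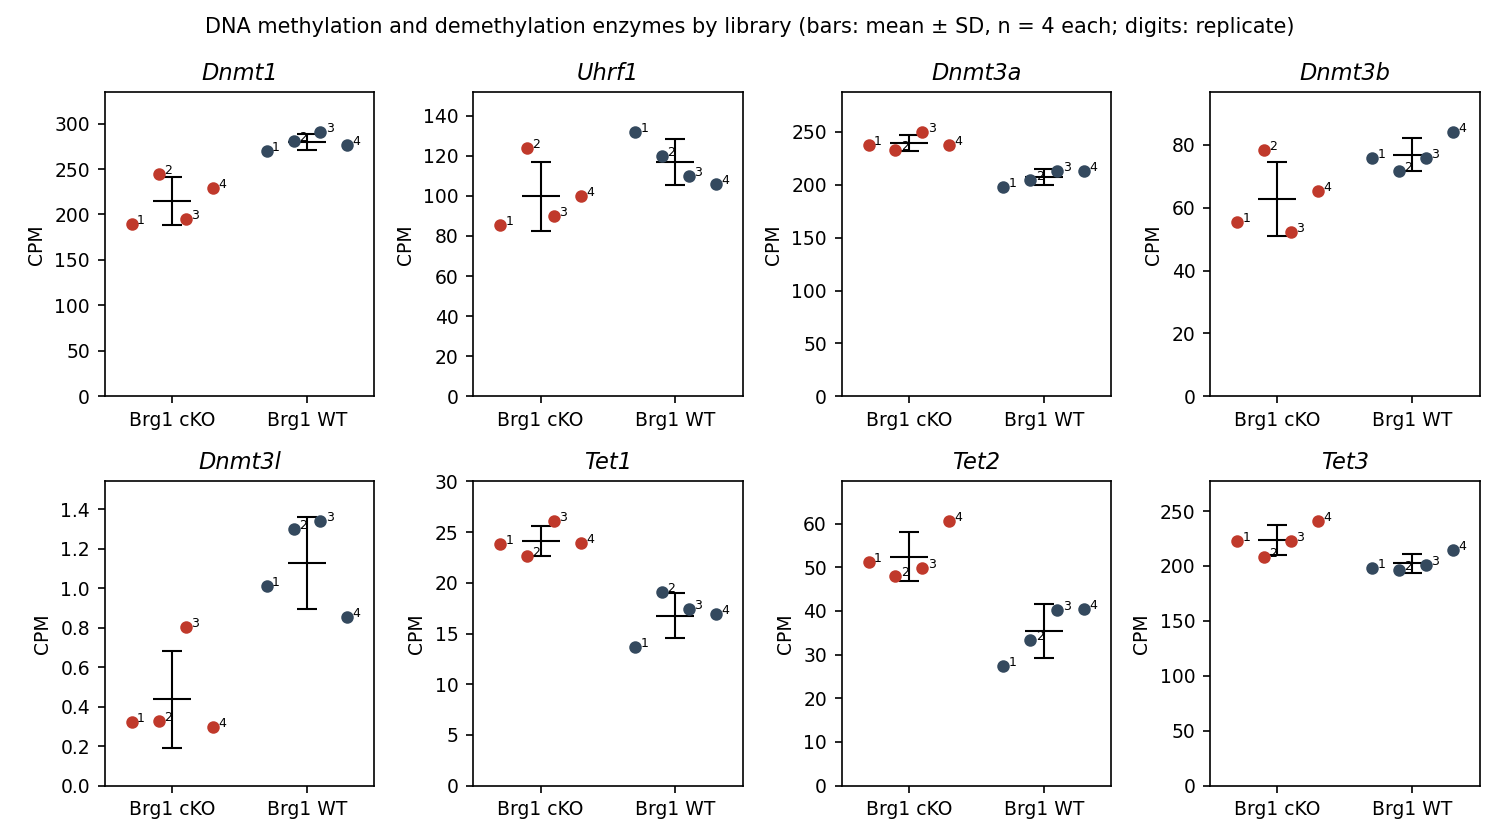
CPM of the 8 enzyme genes in each library, Brg1 cKO left and Brg1 WT right, with replicate numbers beside the points and bars at the mean ± SD (n = 4 each). The points of the genotypes do not overlap for Dnmt1, Dnmt3a, Dnmt3l, Tet1 and Tet2, and do overlap for Uhrf1, Dnmt3b and Tet3.

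Dnmt1, the maintenance methyltransferase, had 190.05, 245, 195 and 229 CPM in Brg1 cKO replicates 1 to 4, against 270.02, 281, 291 and 276 CPM in Brg1 WT replicates 1 to 4. All Brg1 cKO libraries lay below all Brg1 WT libraries, and replicate 2 was the highest and replicate 1 the lowest of the Brg1 cKO group. The means were 215 ± 26.7 CPM in Brg1 cKO and 279 ± 8.81 CPM in Brg1 WT (SD, n = 4 each), which is -0.38 ± 0.086 as a log2 fold change with its SE (edgeR, adjusted p = 0.017). Leaving out 1 library at a time gave fits that called 9.85% to 21.4% of all genes, and Dnmt1 was called lower in all 8 of them, with log2 fold changes of -0.45 to -0.32. Without Brg1 WT replicates 1 and 2 the estimate was -0.40 and the adjusted p 0.098.

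Uhrf1, the reader of hemimethylated DNA that recruits Dnmt1, had 85.5, 124, 89.9 and 99.8 CPM in Brg1 cKO replicates 1 to 4, against 132, 120.43, 110.08 and 106 CPM in Brg1 WT replicates 1 to 4. Brg1 cKO replicate 2 lay within the Brg1 WT range, and the other Brg1 cKO libraries lay below it. The log2 fold change was -0.23 ± 0.12 (SE, edgeR, adjusted p = 0.19), so no difference was detected. Without Brg1 cKO replicate 2 it was -0.35 (adjusted p = 0.027). The same library was the highest of its group for Dnmt1, for Dnmt3b and for the summed S phase genes described below. It was also the highest of its group for the summed germ cell markers and the lowest for the summed Sertoli cell markers, mostly Clu.

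Among the de novo enzymes, Dnmt3a was higher in Brg1 cKO, with 237, 233, 249.6 and 237 CPM in Brg1 cKO replicates 1 to 4, against 198, 204, 213 and 213 CPM in Brg1 WT replicates 1 to 4. The libraries did not overlap, and the spread within each genotype was small. The means were 239 ± 7.22 CPM in Brg1 cKO and 207 ± 7.72 CPM in Brg1 WT (SD, n = 4 each), which is 0.21 ± 0.053 as a log2 fold change with its SE (edgeR, adjusted p = 0.025), or 1.16-fold. Dnmt3a was called in 4 of the 8 fits that leave out a library, with estimates of 0.19 to 0.24 and adjusted p up to 0.064. The call was lost without Brg1 cKO replicate 1 (adjusted p = 0.06) or 3 (0.061), and without Brg1 WT replicate 1 (0.062) or 2 (0.064). Without both of these Brg1 WT libraries the estimate was 0.17 (adjusted p = 0.18).

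Dnmt3b, the second de novo enzyme, had 55.3, 78.3, 52.2 and 65.3 CPM in Brg1 cKO replicates 1 to 4, against 75.8, 71.5, 75.8 and 84.1 CPM in Brg1 WT replicates 1 to 4. Brg1 cKO replicate 2 again lay within the Brg1 WT range and the other 3 below it. The log2 fold change was -0.29 ± 0.121 (SE, edgeR, adjusted p = 0.11), which did not pass the threshold, and without Brg1 cKO replicate 2 it was -0.41 (adjusted p = 0.016). Gm14490, which a reference table of mouse genes lists under the synonym Dnmt3c, is a near copy of Dnmt3b. The counting could have split reads between these 2 genes. Gm14490 averaged 3.68 ± 0.75 CPM in Brg1 cKO and 2.77 ± 0.237 CPM in Brg1 WT (SD, n = 4 each, adjusted p = 0.13, edgeR). It was not called, and its Brg1 cKO libraries all lay above its Brg1 WT libraries, while 26.0% of all tested genes did not overlap.

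Dnmt3l was close to the limit of detection. It had 7, 9, 20 and 6 estimated counts in Brg1 cKO replicates 1 to 4, against 30, 34, 44 and 21 in Brg1 WT replicates 1 to 4. Brg1 cKO replicate 3 stood above the other 3 of its group and just under the lowest Brg1 WT library once scaled to CPM, at 0.802 CPM in Brg1 cKO replicate 3 and 0.855 CPM in Brg1 WT replicate 4. The means were 0.437 ± 0.244 CPM in Brg1 cKO and 1.13 ± 0.235 CPM in Brg1 WT (SD, n = 4 each), which is -1.35 ± 0.359 as a log2 fold change with its SE (edgeR, adjusted p = 0.029). The call held in 2 of the 8 fits that leave out a library, those without Brg1 cKO replicate 3 (log2 fold change -1.82, adjusted p = 0.014) and without Brg1 WT replicate 4 (-1.46, 0.037), and was lost without any other single library, with adjusted p of 0.054 to 0.084. Without Brg1 WT replicates 1 and 2 the estimate was -1.32 (adjusted p = 0.16).

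The 3 dioxygenases had higher means in Brg1 cKO, and the differences of Tet1 and Tet2 passed the test. Tet1, which carries a CXXC domain that binds unmethylated CpG, had 23.8, 22.6, 26.1 and 23.9 CPM in Brg1 cKO replicates 1 to 4, against 13.7, 19.1, 17.4 and 16.9 CPM in Brg1 WT replicates 1 to 4. The libraries did not overlap, and Brg1 WT replicate 1 was the lowest. The means were 24.1 ± 1.43 CPM in Brg1 cKO and 16.8 ± 2.26 CPM in Brg1 WT (SD, n = 4 each), which is 0.52 ± 0.11 as a log2 fold change with its SE (edgeR, adjusted p = 0.013) or 1.44-fold. Tet1 was called in every fit that left out a library, at 0.44 to 0.60, and without Brg1 WT replicates 1 and 2 at 0.49 (adjusted p = 0.049).

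Tet2, a dioxygenase without its own CXXC domain, had 51.1, 48.0, 49.8 and 60.6 CPM in Brg1 cKO replicates 1 to 4, against 27.5, 33.3, 40.3 and 40.5 CPM in Brg1 WT replicates 1 to 4. Brg1 WT replicates 1 and 2 were the lowest, the libraries that also had the most pachytene transcripts. The means were 52.4 ± 5.6 CPM in Brg1 cKO and 35.4 ± 6.24 CPM in Brg1 WT (SD, n = 4 each), which is 0.56 ± 0.13 as a log2 fold change with its SE (edgeR, adjusted p = 0.018) or 1.48-fold. Without Brg1 WT replicate 2 the estimate was 0.54, and its adjusted p of 0.05 was no longer under the threshold, and without Brg1 WT replicates 1 and 2 the estimate was 0.38 (adjusted p = 0.099).

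Tet3, the most abundant of the 3 per length, had 223, 208, 223 and 241 CPM in Brg1 cKO replicates 1 to 4, against 198, 196, 201 and 215 CPM in Brg1 WT replicates 1 to 4. Brg1 cKO replicate 2 lay below Brg1 WT replicate 4, so the groups overlapped. The log2 fold change was 0.14 ± 0.062 (SE, edgeR, adjusted p = 0.12) and did not pass the threshold in any fit that left out a library.

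These directions hold relative to the bulk of all genes, whose median log2 fold change was 0.01, and they change when another set of genes is taken as the standard. The median was -0.34 for the germ cell markers, 0.46 for the Sertoli cell markers and -0.32 for genes of DNA replication. Relative to the germ cell markers, a scale on which 54.6% of all genes were called, Dnmt1 differed by -0.04 (adjusted p = 0.72), and Dnmt3a (0.55), Tet1 (0.86), Tet2 (0.90) and Tet3 (0.48) were called higher and Dnmt3l (-1.01) lower. Relative to the Sertoli cell markers, where 60.4% of genes were called, Dnmt3a turned to -0.25 and Tet3 to -0.31, Dnmt1 was at -0.84, Dnmt3l at -1.81, Uhrf1 at -0.69 (adjusted p = 0.00077) and Dnmt3b at -0.75 (adjusted p = 0.00047), all 6 called lower, and Tet1 (0.06) and Tet2 (0.10) did not differ detectably. Relative to the replication genes, where 51.9% of genes were called, Dnmt1 differed by -0.06 (adjusted p = 0.56), and the other calls were those of the germ cell scale. Which cells carried each transcript was not tested.

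**Figure D2:**
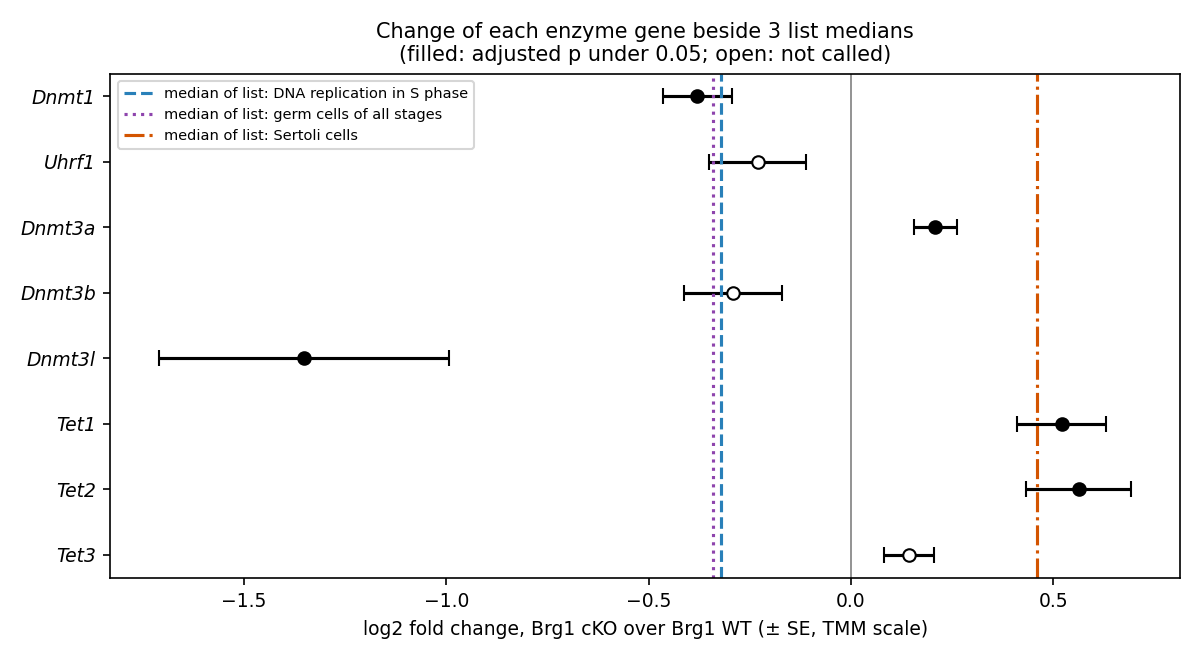
Log2 fold change of each enzyme gene, Brg1 cKO over Brg1 WT, ± SE, with the median log2 fold change of the germ cell, Sertoli cell and S phase lists as vertical lines. Dnmt1, at -0.38, lies near the germ cell and S phase medians of -0.34 and -0.32, and Tet1 and Tet2, at 0.52 and 0.56, lie near the Sertoli cell median of 0.46. Medians of other lists, not drawn, lie near too: -0.44 for mitosis, 0.51 for macrophage markers and 0.40 for imprinted genes.

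Ratios between 2 of the genes within a library do not depend on how libraries are scaled. For 4 of 7 such ratios the libraries of the genotypes did not overlap, and none of the 7 passed the threshold after adjustment. How often other pairs of genes show such non-overlap was not computed. Dnmt3l to Dnmt3a is among the 4 and is not counted as support, because Dnmt3l passed the filter through the Brg1 WT libraries. Each of the 7 was tested with an exact two-sided permutation test over all 70 ways to place the genotype labels, which cannot give a p below 0.0286. The log2 ratio of Dnmt3a to Dnmt3b was 1.57 to 2.26 in Brg1 cKO and 1.34 to 1.51 in Brg1 WT, a difference of 0.52 ± 0.155 (SE, n = 4 each, exact p = 0.0286, adjusted p = 0.05). The ratio of Tet1 to Tet3 was higher by 0.38 ± 0.116 and that of Tet2 to Tet3 by 0.43 ± 0.122 on the log2 scale, and the ratio of Dnmt3l to Dnmt3a differed by -1.52 ± 0.31, each with the same exact p and adjusted p. With 4 of the 7 at the lowest possible p, 0.05 was the smallest adjusted p they could have. An adjusted p of 0.05 is at the threshold and not under it, so the adjusted test could not call them. In all 4 Brg1 cKO libraries, then, Tet1 and Tet2 stood higher relative to Tet3, and Dnmt3a higher relative to Dnmt3b, than in any of the 4 Brg1 WT libraries.

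The other 3 ratios overlapped between the genotypes. Dnmt1 to Uhrf1, the maintenance pair, was 0.98 to 1.20 in Brg1 cKO and 1.03 to 1.40 in Brg1 WT on the log2 scale (difference -0.15 ± 0.098, exact p = 0.2, adjusted p = 0.233). Tet1 to Tet2 differed by -0.05 ± 0.135 (exact p = 0.743, adjusted p = 0.743), and Dnmt3l to Dnmt3b by -1.0 ± 0.43 (exact p = 0.0857, adjusted p = 0.12). The ratios with Dnmt3l are drawn toward 0 by the prior count of 2 added before the logarithm.

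**Figure D3:**
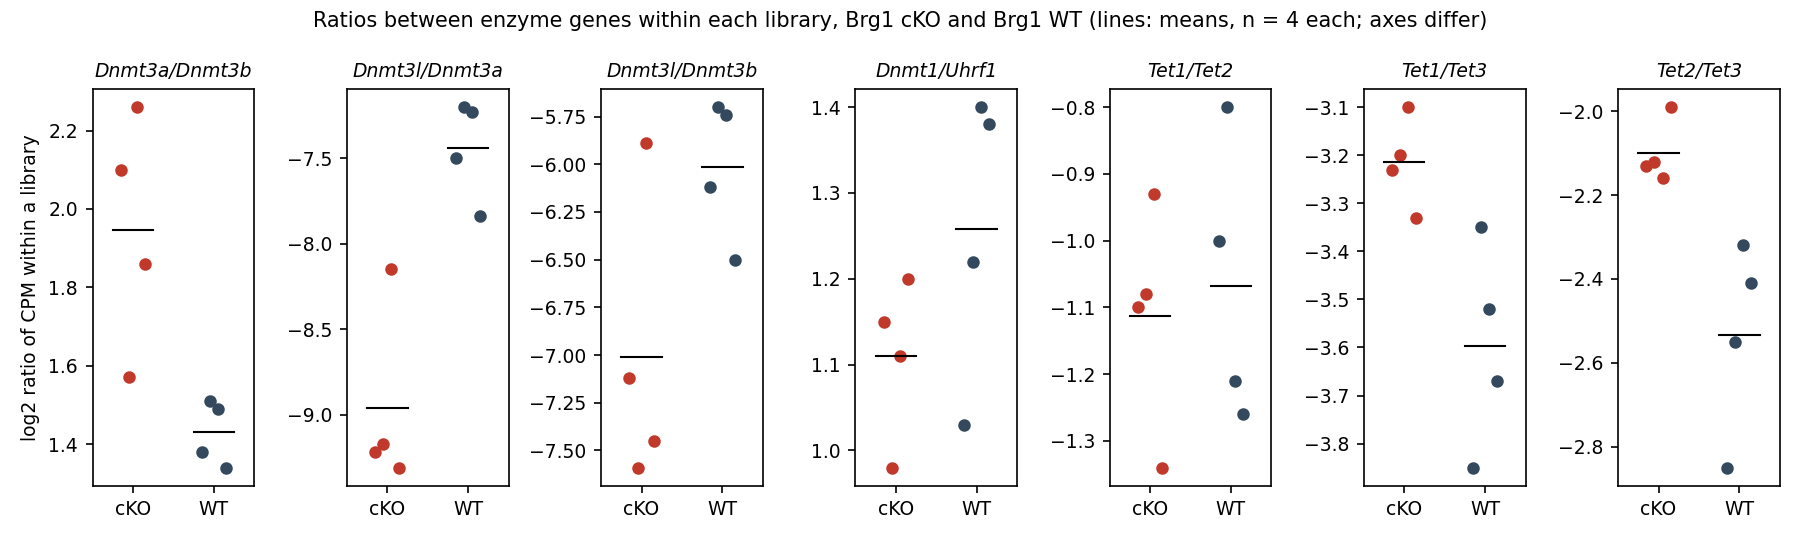
Log2 ratio of the CPM of 2 enzyme genes within each library, Brg1 cKO left and Brg1 WT right in each panel, with lines at the means (n = 4 each) and an axis of its own per panel. The libraries of the genotypes do not overlap for Dnmt3a/Dnmt3b, Dnmt3l/Dnmt3a, Tet1/Tet3 and Tet2/Tet3.

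Levels of different genes were compared per length, as CPM per kb of one principal GENCODE M21 transcript of each gene. Dnmt1 was the most abundant on this scale, at 40.0 ± 4.97 in Brg1 cKO and 52.0 ± 1.64 in Brg1 WT (SD, n = 4 each). Tet3 came next, at 37.7 ± 2.24 CPM per kb in Brg1 cKO and 34.1 ± 1.46 in Brg1 WT. In Brg1 cKO the ranges of Dnmt1 and Tet3 overlapped, whereas in Brg1 WT every library of Dnmt1 was above every library of Tet3. Uhrf1 followed with 27.9 CPM per kb in Brg1 cKO and 32.7 in Brg1 WT, overlapping Dnmt3a in Brg1 cKO and Tet3 in Brg1 WT. Dnmt3a was at 24.7 CPM per kb in Brg1 cKO and 21.4 in Brg1 WT, and Dnmt3b at 14.5 in Brg1 cKO and 17.8 in Brg1 WT.

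Tet2 had 5.7 CPM per kb in Brg1 cKO and 3.86 in Brg1 WT, Tet1 had 1.68 in Brg1 cKO and 1.17 in Brg1 WT, and Dnmt3l had 0.24 in Brg1 cKO and 0.62 in Brg1 WT, with no overlap between neighbours in this part of the order. Tet3 was thus the most abundant Tet transcript per kb in the libraries of both genotypes, whichever cells carried it. The order at the top depends on the length used: Dnmt3a, whose transcript has a long untranslated part, came first per kb of coding sequence, at 87.8 in Brg1 cKO and 76.0 in Brg1 WT, ahead of Dnmt1 at 44.2 in Brg1 cKO and 57.5 in Brg1 WT. Which transcripts were present was not measured.

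**Figure D4:**
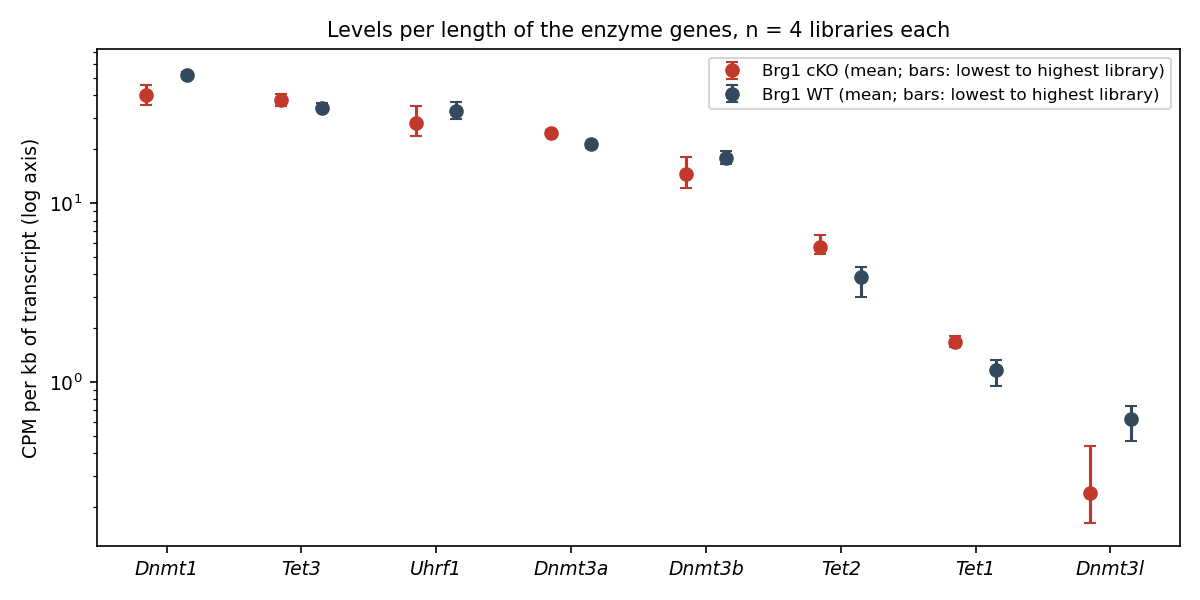
Mean CPM per kb of transcript of the enzyme genes on a log axis, ordered by the Brg1 WT level, Brg1 cKO left of Brg1 WT, with bars from the lowest to the highest of 4 libraries. Dnmt1, Tet3, Uhrf1, Dnmt3a and Dnmt3b lie between 14.5 and 52.0, and Tet2, Tet1 and Dnmt3l between 0.24 and 5.7.

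The genes whose log2 CPM followed each enzyme gene most closely over the 8 libraries were looked up among 10263 genes, as a description without a test, and the difference between the genotypes contributes to every correlation. Dnmt1 was followed most closely by Cpsf3, a subunit of the mRNA cleavage machinery (Pearson r = 0.996), and Prkag2, a subunit of AMP-activated kinase (0.991). Uhrf1 was followed by Cox11 (0.982), a copper chaperone of cytochrome oxidase, and Mael (0.98), a germ cell factor of the piRNA pathway. Dnmt3a was followed by Efhd1 (0.995) and Zcchc9 (0.988), Dnmt3b by Camk4 (0.97) and Fastkd3 (0.969), and Dnmt3l by Zfp598 and Nbeal2 (0.977 each). Tet1 was followed by Gyg, glycogenin (0.986), and Tcf4, a basic helix-loop-helix factor (0.976), and Tet3 by Slc37a2 (0.989) and Tfdp2 (0.983). Tet2 was followed by Arid1b (0.99), a subunit of the SWI/SNF complex, and Atrx (0.989), another chromatin remodeller. Both were called higher in Brg1 cKO, by 0.45 for Arid1b and 0.37 for Atrx (log2, adjusted p = 0.019 and 0.032, edgeR). They were picked for following Tet2, itself called higher, so these calls add no separate support. Of all tested genes 8.79% were called higher.

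The wider pathway was described with 9 lists of related genes, which held 114 different tested genes, of which 5 were called higher and 21 lower, 22.8% in all against 20.6% of all tested genes. The S phase and mitosis lists held 12 of the 26. Each list's counts below are to be read beside the 8.79% of all tested genes called higher and the 11.8% called lower. Without Brg1 WT replicates 1 and 2, 5 of these genes were called.

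Among 10 partners of maintenance methylation, 2 were lower, none was higher and 8 were not called (median log2 fold change -0.12, all genes 0.01). Hells, a helicase needed for normal DNA methylation in mice, averaged 234 ± 40.5 CPM in Brg1 cKO and 328 ± 16.2 CPM in Brg1 WT (SD, n = 4 each, adjusted p = 0.017, edgeR). Dppa3, which protects maternal 5-methylcytosine in the mouse zygote, had 2, 0, 0 and 2 estimated counts in Brg1 cKO replicates 1 to 4, against 13.7, 19, 45 and 21 in Brg1 WT replicates 1 to 4 (adjusted p = 0.0057, edgeR). These counts are too few for a fold change. Dppa3 passed the filter on low counts through the Brg1 WT libraries, with 0 of 4 Brg1 cKO libraries and 4 of 4 Brg1 WT libraries over its limit, so its call is not counted as support for a change of the list. It was the only one of the 10 called without Brg1 WT replicates 1 and 2.

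Among 12 partners of de novo methylation, 3 were lower, none was higher and 9 were not called (median -0.25). The share of all tested genes called lower was 11.8%. Piwil4, the nuclear Piwi protein that directs methylation of transposons in mouse prospermatogonia, averaged 8.07 ± 1.22 CPM in Brg1 cKO and 15.5 ± 2.5 CPM in Brg1 WT (SD, n = 4 each, adjusted p = 0.0052, edgeR). Spocd1, which works in the same pathway, had 1.79, 2.11, 0.962 and 1.24 CPM in Brg1 cKO replicates 1 to 4, against 2.67, 5.48, 3.76 and 3.26 CPM in Brg1 WT replicates 1 to 4 (adjusted p = 0.018, edgeR). Kdm1b, a histone demethylase needed for imprints in mouse oocytes, averaged 46.7 ± 3.67 CPM in Brg1 cKO and 60.8 ± 4.95 CPM in Brg1 WT (SD, n = 4 each, adjusted p = 0.013, edgeR). In the edgeR fit without Brg1 WT replicates 1 and 2, 0 of the 12 were called, 3 had an unadjusted p under 0.05, and the median was -0.14. Of 18 markers of undifferentiated spermatogonia 9 were called lower, 2 higher and 7 not called, while 11.8% of all tested genes were called lower and 8.79% higher. These markers summed to 406 to 519 CPM in Brg1 cKO and 532 to 696 CPM in Brg1 WT. Their part in the lower levels of the de novo partners was not tested.

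On the side of removal, 1 of 16 tested genes of demethylation and base excision was higher, 1 lower and 14 not called (median 0.14). Mbd4, a glycosylase for mismatched thymine at CpG, averaged 16.3 ± 1.6 CPM in Brg1 cKO and 24.3 ± 2.36 CPM in Brg1 WT (SD, n = 4 each, adjusted p = 0.0079, edgeR). Gadd45g, a stress-induced adaptor, averaged 36.5 ± 7.52 CPM in Brg1 cKO and 26.2 ± 3.01 CPM in Brg1 WT (SD, n = 4 each, adjusted p = 0.044, edgeR), and its libraries overlapped. Tdg, the glycosylase that excises the products of the Tet enzymes, had 67.1 ± 9.56 CPM in Brg1 cKO and 64.3 ± 16.1 CPM in Brg1 WT (SD, n = 4 each, adjusted p = 0.83, edgeR). Neil1 was listed at 0 in all libraries.

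A list of readers of methylated CpG and members of their families held 9 genes. Of these, Zbtb4, a zinc finger repressor, was higher, at 39.9 ± 5.09 CPM in Brg1 cKO and 30.9 ± 3.21 CPM in Brg1 WT (SD, n = 4 each, adjusted p = 0.042, edgeR). Its libraries overlapped, and the other 8 genes were not called. Of 15 genes of methyl donor supply, Mtr, the methionine synthase, was lower, at 130 ± 4.42 CPM in Brg1 cKO and 158 ± 6.58 CPM in Brg1 WT (SD, n = 4 each, adjusted p = 0.0092, edgeR), and the other 14 were not called (median 0). In the edgeR fit without Brg1 WT replicates 1 and 2 neither gene was called, nor was any other of these lists or of the demethylation list, of which 1, 3 and 3 genes had an unadjusted p under 0.05.

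Targets of the mark were described with a pair of lists. Of 12 germ-line genes known to be silenced by promoter methylation in somatic cells, none was higher, 2 were lower and 10 were not called (median -0.32). The share of all tested genes called lower was 11.8%. Tex101, a germ cell surface protein, averaged 90.2 ± 11.3 CPM in Brg1 cKO and 178 ± 41.7 CPM in Brg1 WT (SD, n = 4 each, adjusted p = 0.0054, edgeR), and Slc25a31, an ADP/ATP carrier of the germ line, 85.1 ± 10.7 CPM in Brg1 cKO and 116 ± 10.6 CPM in Brg1 WT (adjusted p = 0.015). These genes are also germ cell genes, and the median of the germ cell markers was -0.34. Tex101 alone of the 12 was called, lower, without Brg1 WT replicates 1 and 2.

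Of 13 imprinted genes 3 were higher, none was lower and 10 were not called (median 0.40). The share of all tested genes called was 20.6%, with 8.79% called higher. Peg3, a maternally imprinted zinc finger gene, averaged 183 ± 25.3 CPM in Brg1 cKO and 130 ± 15.8 CPM in Brg1 WT (SD, n = 4 each, adjusted p = 0.02, edgeR), Snrpn 12.4 ± 0.687 CPM in Brg1 cKO and 9.44 ± 0.851 CPM in Brg1 WT (0.028), and Sgce 23.8 ± 3.1 CPM in Brg1 cKO and 17.4 ± 1.9 CPM in Brg1 WT (0.028). In the edgeR fit without Brg1 WT replicates 1 and 2 all 3 calls were lost: 0 of the 13 were called, 6 had an unadjusted p under 0.05, and the median was 0.34. The median of the Sertoli cell markers was 0.46 and that of 7 stromal markers 0.68, and the stromal list summed to 1120 to 2380 CPM in Brg1 cKO and 877 to 1420 CPM in Brg1 WT. The part of somatic transcripts in the imprinted genes was not tested. H19, Kcnq1ot1 and Meg3 were not analysed here.

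Genes of the dividing cell, in which maintenance methylation acts, were called lower in part. The share of all tested genes called lower was 11.8%. Of 18 genes of DNA replication 6 were lower, none higher and 12 not called (median -0.32), with summed levels of 1060, 1410, 1060 and 1190 CPM in Brg1 cKO replicates 1 to 4, against 1470, 1370, 1430 and 1390 CPM in Brg1 WT replicates 1 to 4. Brg1 cKO replicate 2 was the only library of its group within the Brg1 WT range, the position it also held for Uhrf1 and Dnmt3b. It held that position too for the summed Sertoli cell markers, mostly Clu, at 5550 CPM (Brg1 WT 4430 to 5610 CPM). The same was true of the summed partners of maintenance methylation, at 1380 CPM (Brg1 WT 1370 to 1420 CPM), so the position is not particular to replication. Rrm2, a subunit of ribonucleotide reductase, averaged 29.9 ± 3.25 CPM in Brg1 cKO and 46.3 ± 3.21 CPM in Brg1 WT (SD, n = 4 each, adjusted p = 0.0034, edgeR), and Cdc45, a part of the replicative helicase, and Ccne2, a cyclin of S phase entry, fell by 0.46 and 0.50 on the log2 scale (adjusted p = 0.0075 and 0.011, edgeR). Of 10 mitotic genes 6 were lower, none higher and 4 not called (median -0.44). Mki67, the proliferation antigen, fell by 0.67 on the log2 scale (adjusted p = 0.0021, edgeR), and Plk1, a mitotic kinase, and Top2a, a topoisomerase, fell by 0.61 and 0.53 on the log2 scale (adjusted p = 0.0054 and 0.0061, edgeR). In the fit without Brg1 WT replicates 1 and 2, Rrm2 was still called among the replication genes and Mki67 and Top2a among the mitotic genes, all lower.

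**Figure D5:**
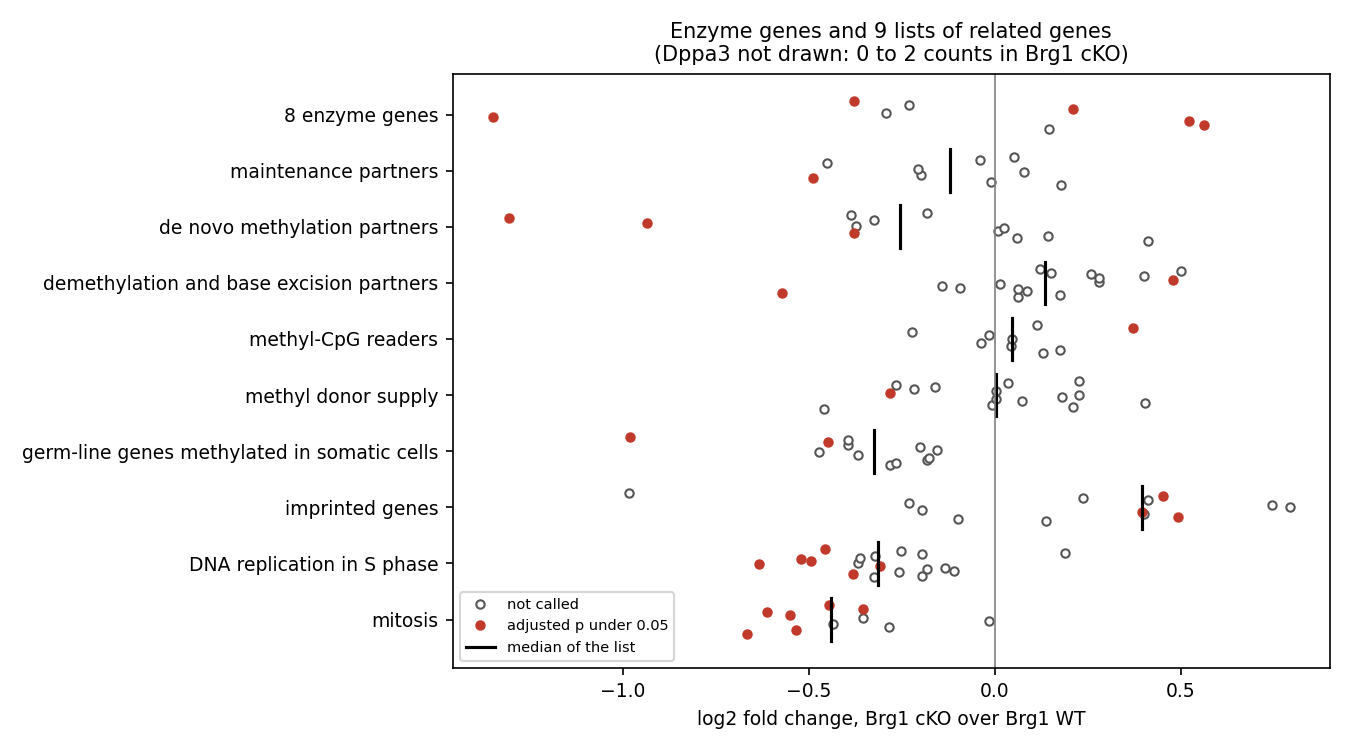
Log2 fold change, Brg1 cKO over Brg1 WT, of the 8 enzyme genes and of 9 lists of related genes, filled where the adjusted p was under 0.05, with a black line at each list's median. The replication and mitosis medians lie at -0.32 and -0.44 and that of the imprinted genes at 0.40, and Dppa3 is not drawn.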

How the data were processed

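Estimated counts per gene symbol, made with kallisto 0.42.5 per the submitters' processing notes and deposited by the authors, were not scaled for depth or length; edgeR and mm9 are also named there. The annotation and the summing of transcripts to genes were not stated. The kit was a stranded mRNA kit (labels' protocols). Because 49.4% of values were not whole, counts were rounded. Genes were filtered with filterByExpr, scaled with TMM and tested with the robust quasi-likelihood test of edgeR 4.0.16 (R 4.3.3), genotype the only term, with Benjamini-Hochberg adjustment over 16059 genes. SE is the log2 fold change over the root of F. Alternatives used DESeq2 1.42.0, limma-voom 3.58.1, other scalings, filters and libraries. Ratios used a prior count of 2. All pairs of libraries of the same genotype differed by more than sampling noise (lowest chi-square per degree of freedom 21.5).

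The members and lists were chosen with earlier results of these data known. Named genes were the 8 members, Smarca4, up to 3 called genes per list with the smallest adjusted p, the 2 most correlated genes per member with average log2 CPM of at least 3, and abundant markers. Gm14490, Tdg and genes described as absent were named outside this rule, after their values were seen.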

Additional observations from a re-analysis of the deposited data

Results flagged for a closer look

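Of 58 groups of 4 libraries examined, 3 held a library set apart from the others by a gap past Dixon's critical value, a share that chance alone gives, at about 1 in 20. Dnmt3l stood at 0.802 CPM in Brg1 cKO replicate 3, while the other Brg1 cKO libraries had 0.297 to 0.328 CPM. Piwil4 stood at 6.26 CPM in Brg1 cKO replicate 3, below the 8.56 to 8.86 CPM of the other Brg1 cKO libraries. Tex101 stood at 240 CPM in Brg1 WT replicate 1, above the 152 to 161 CPM of the other Brg1 WT libraries.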

How the results depend on the processing

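DESeq2, limma-voom, RLE and upper-quartile factors and the absence of a filter each called the same 5 enzyme genes in the same directions; a filter of 1 CPM in 4 libraries removed Dnmt3l and left the other 4 called. Taking the germ cell, Sertoli cell or S phase list as unchanged called 8772, 9703 and 8330 genes in place of 3312. Of the list genes it called 54, 90 and 52 in place of 26. These counts follow from moving the zero point for all genes, and they leave out the error of the list medians. On the germ cell and S phase scales the fold changes of Uhrf1 (0.11 and 0.09) and Dnmt3b (0.05 and 0.02) changed sign, and on the Sertoli scale those of Dnmt3a (-0.25) and Tet3 (-0.31). Without Brg1 WT replicates 1 and 2 together, 438 genes, 1 enzyme gene and 5 list genes were called, with fewer samples. Leaving out 1 library gave 1608 to 3477 genes, 2 to 6 enzyme genes and 17 to 44 list genes. Same-numbered libraries did not deviate together, their correlations running from -0.563 to 0.239 with 2 of 4 over 0.1, and 2 of 4 Brg1 cKO libraries correlated best with their own number. With the replicate block 1914 genes were called, and Dnmt3a was not (0.21, adjusted p = 0.065). For the ratios no result passed the adjusted threshold under prior counts of 0.5 or 5 either, 4 having an unadjusted p under 0.05 in the values reported; leaving out libraries and the replicate block gave differences only, and the sign-flip test over the pairs was not run. Depth limits Dnmt3l, with at most 44 counts in a library.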
